A study of Mus musculus with 12 samples.

Results

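Rarely used internal exon bins are pieces of a gene's annotated exons that gave few reads for their gene in macrophages with control siRNA. Only the outermost piece at each end of the gene is left out. The deposited exon counts split every gene into bins, numbered along the chromosome, at each place where an annotated exon begins or ends. A bin was selected on its reads in the 3 libraries of control cells without LPS, pooled. It had to lie in a gene with 5 or more bins and 1000 or more bin counts in these libraries, without reads shared with another gene's bins, and be neither the lowest- nor the highest-numbered bin. Its pooled count had to be under 5% of the gene's median bin count, with 30 or more counts over all 11 libraries with exon counts. In all, 3151 bins of 1755 genes met the rule, of 354841 bins in 37223 genes or joined genes counted. The 7620 genes that could hold such bins had 149680 internal bins, and 15437 of these were under 5% of the median bin at any count.

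The cells were RAW264.7, an established macrophage line derived from BALB/c mice, used as cultures of 1 line. They were transfected with a nontargeting siRNA (groups 24_Ctrl and 24_LPS) or an siRNA against SF3a1 (groups SF3_Ctrl and SF3_LPS). After 24 hours they were left without LPS (24_Ctrl and SF3_Ctrl) or exposed to 20 ng/ml LPS for 4 hours (24_LPS and SF3_LPS). Each group had 3 replicate cultures, transfection was shared by all groups, and polyA RNA was sequenced. No exon counts of 24_LPS replicate 3 were used here, so 24_LPS has 2 libraries wherever bins are compared. The SF3_LPS against 24_LPS comparison asks whether bins hardly used in control cells are used more when SF3a1 is depleted during an LPS response. It shares no library with the 24_Ctrl libraries that chose the bins.

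SF3a1 is a subunit of SF3a, a protein complex of the U2 small nuclear ribonucleoprotein. During splicing, U2AF binds the pyrimidine-rich tract and the AG at the end of an intron, and U2 with SF3a and SF3b then takes hold of the branch site just upstream. When this 3′ end of an intron is not recognised, the intron can stay in the mRNA, an exon can be skipped, or another splice site or exon can be used in its place. Exon pieces that a cell rarely includes report such choices, and many of them bring early stop codons that mark the mRNA for decay. In macrophages LPS is sensed by TLR4, and alternative splicing of the genes below it is known to shape the inflammatory response.

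The siRNA target was lower in every library with SF3a1 siRNA. Sf3a1 stood at 193 ± 17.8 CPM (counts scaled to a common library size) in 24_Ctrl, 166 ± 19.4 in 24_LPS, 28.8 ± 2.52 in SF3_Ctrl and 33.9 ± 9.44 in SF3_LPS (SD, n = 3 each). Its log2 change in SF3_LPS against 24_LPS was -2.29 (SE 0.21, adjusted p = 0.000116, edgeR quasi-likelihood test over 14524 genes), so depletion was partial. Of the macrophage markers, Cd68, Csf1r, Lyz2 and Tyrobp were present in every library, and the 10 markers summed to 10635 to 17431 CPM. Lyz2 was the most abundant of them. Markers of T cells, B cells, epithelium, fibroblasts and red cells summed to at most 0.190, 0.359, 0.216, 0.324 and 0.0476 CPM.

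Depth and one set of libraries need to be known before the results. The 11 libraries held 17269833 to 59095475 bin counts. The libraries numbered 1 in each group, which the study sequenced in 2 runs each and pooled, held 39326161 to 59095475, and those numbered 2 or 3 held 17269833 to 29642758. In bin usage the libraries numbered 1 stood apart from the others in all 4 groups. The counts with a replicate block are therefore given beside the main ones, and so are log2 changes from the libraries numbered 2 and 3 alone.

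The values that chose the bins are a description and carry no test. The median member had 14 counts pooled over 24_Ctrl, which was 2.87% of its gene's median bin, and 59 counts over the 11 libraries. Counts were not corrected for the length of a bin, so a percent of the median bin is not a level of inclusion. Just inside the 5% limit lay Plbd2 bin 12 (36 counts against a median bin of 721) and Map2k2 bin 21 (40 against 800.5), and just outside it Rps9 bin 2 (18 against 360) and Snap47 bin 14 (6 against 120). At the count limit, 102 bins had exactly 30 counts, among them Xpo6 bins 13 and 66, and 78 bins missed it with 29, among them Sec24b bin 34 and Npepps bin 58. The limit over 11 libraries counts the tested libraries too, and a bin could pass through the group where it is high. For this reason 651 bins of 379 genes that have 30 or more counts in 24_Ctrl alone are shown beside all 3151. No count was found in 24_Ctrl for 49 bins.

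Sequences are shown for called bins whose place in the gene is known, to show the annotated sequence that each bin covers. They are given 5′ to 3′ on the gene's strand in mm10, from the GENCODE vM21 transcripts. In the exons of Sdcbp and Cd44 the capitals mark the first 3 and last 3 bases, next to the splice sites, and in that of Bsg the first 3. Of the Bsg exon, at chr10:79708697-79709044 on the plus strand and 348 bases long, only the first 300 bases are shown. The Sdcbp exon lies at chr4:6367640-6367808 (plus strand, 169 bases) and the Cd44 exon at chr2:102832483-102832572 (minus strand, 90 bases). In Ptbp1 the bin at chr10:79856339-79856503 (plus strand, 165 bases) runs up to the next exon, and the capitals mark its last 2 bases, where an annotated intron ends. In Atp6v0b the whole intron at chr4:117885681-117885803 (minus strand, 123 bases) is shown, with the 3 bases of the bin itself in capitals.
Bsg bin 5: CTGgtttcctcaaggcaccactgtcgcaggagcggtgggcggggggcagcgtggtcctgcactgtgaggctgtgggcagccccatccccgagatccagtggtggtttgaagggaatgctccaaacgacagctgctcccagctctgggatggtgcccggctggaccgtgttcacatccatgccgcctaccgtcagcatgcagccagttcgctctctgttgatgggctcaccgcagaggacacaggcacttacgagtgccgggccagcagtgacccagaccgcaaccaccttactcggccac
Sdcbp bin 8: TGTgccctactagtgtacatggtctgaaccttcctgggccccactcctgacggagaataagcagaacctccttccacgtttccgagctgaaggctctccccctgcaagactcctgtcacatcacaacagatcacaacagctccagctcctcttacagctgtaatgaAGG
Cd44 bin 11: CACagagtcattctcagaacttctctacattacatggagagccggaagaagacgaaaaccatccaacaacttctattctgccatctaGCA
Ptbp1 bin 11: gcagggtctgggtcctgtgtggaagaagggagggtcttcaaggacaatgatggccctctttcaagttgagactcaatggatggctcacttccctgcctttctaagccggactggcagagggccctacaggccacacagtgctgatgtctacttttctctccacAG
Atp6v0b intron: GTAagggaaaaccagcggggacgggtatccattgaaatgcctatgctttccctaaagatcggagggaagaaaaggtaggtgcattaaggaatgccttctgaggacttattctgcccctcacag

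The next sequences are the 5 called bins that are a whole annotated intron. Oas3 was named by rule, and the other 4 were chosen after their values were seen. The capitals mark the first 2 bases, the window from 17 to 5 bases before the end where the pyrimidine tract lies, and the last 2 bases. They lie at chr9:54724145-54724325 (Wdr61, minus strand), chr5:120754376-120754555 (Oas3, minus), chr11:78272970-78273096 (2610507B11Rik, plus), chr7:139986487-139986732 (Adam8, minus) and chr7:141402070-141402183 (Taldo1, plus).
Wdr61 bin 12: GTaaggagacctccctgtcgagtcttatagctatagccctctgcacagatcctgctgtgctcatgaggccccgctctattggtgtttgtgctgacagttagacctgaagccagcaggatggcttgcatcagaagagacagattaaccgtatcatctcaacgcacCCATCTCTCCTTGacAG
Oas3 bin 3: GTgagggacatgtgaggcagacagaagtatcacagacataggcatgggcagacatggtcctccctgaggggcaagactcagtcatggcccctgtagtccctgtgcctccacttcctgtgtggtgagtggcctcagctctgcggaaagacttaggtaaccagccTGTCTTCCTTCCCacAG
2610507B11Rik bin 27: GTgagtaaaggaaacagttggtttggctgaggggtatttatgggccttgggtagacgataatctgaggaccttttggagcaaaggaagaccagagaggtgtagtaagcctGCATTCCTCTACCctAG
Adam8 bin 15: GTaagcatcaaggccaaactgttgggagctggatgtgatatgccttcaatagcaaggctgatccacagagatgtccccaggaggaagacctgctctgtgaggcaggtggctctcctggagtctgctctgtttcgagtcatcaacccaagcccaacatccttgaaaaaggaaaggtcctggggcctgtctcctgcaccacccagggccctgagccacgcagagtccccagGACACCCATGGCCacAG
Taldo1 bin 10: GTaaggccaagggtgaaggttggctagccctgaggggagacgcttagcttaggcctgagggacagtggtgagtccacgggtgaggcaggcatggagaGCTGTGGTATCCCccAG

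All 5 introns begin with GT and end with AG. In the window before the end, T (U in the RNA) made up 38.5% of bases in Wdr61, 46.2% in Oas3, 30.8% in 2610507B11Rik, 7.69% in Adam8 and 30.8% in Taldo1. C made up 46.2% in the first 4 and 30.8% in Taldo1.

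After LPS, rarely used bins took a larger share of their genes' reads in every SF3a1-depleted library than in either control library. Summed over the members, they took 0.217% and 0.211% of the bin counts of their genes in the 24_LPS libraries, and 0.248%, 0.288% and 0.285% in SF3_LPS. The groups did not overlap, with means of 0.214% ± 0.00393 (SD, n = 2) and 0.274% ± 0.0220 (n = 3). Without LPS the shares were 0.165%, 0.183% and 0.173% in 24_Ctrl, which chose the bins, and 0.267%, 0.284% and 0.274% in SF3_Ctrl. For the bins with 30 or more counts in 24_Ctrl alone, they were 0.220% and 0.208% in 24_LPS against 0.229%, 0.277% and 0.278% in SF3_LPS. There the lowest SF3_LPS library, replicate 1, lay just above the 24_LPS libraries. No p was computed for these sums, and in bulk libraries a bin used in few cells cannot be told apart from one used a little in all. Reads outside annotated exons, as a percent of all reads counted, were 19.83 and 19.30 in 24_LPS and 19.91, 18.20 and 21.37 in SF3_LPS, so they overlapped between these groups. In SF3_Ctrl they were 27.20, 21.56 and 20.83 against 18.21, 19.63 and 17.85 in 24_Ctrl, and their part in the bin counts was not tested.

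**Figure D1:**
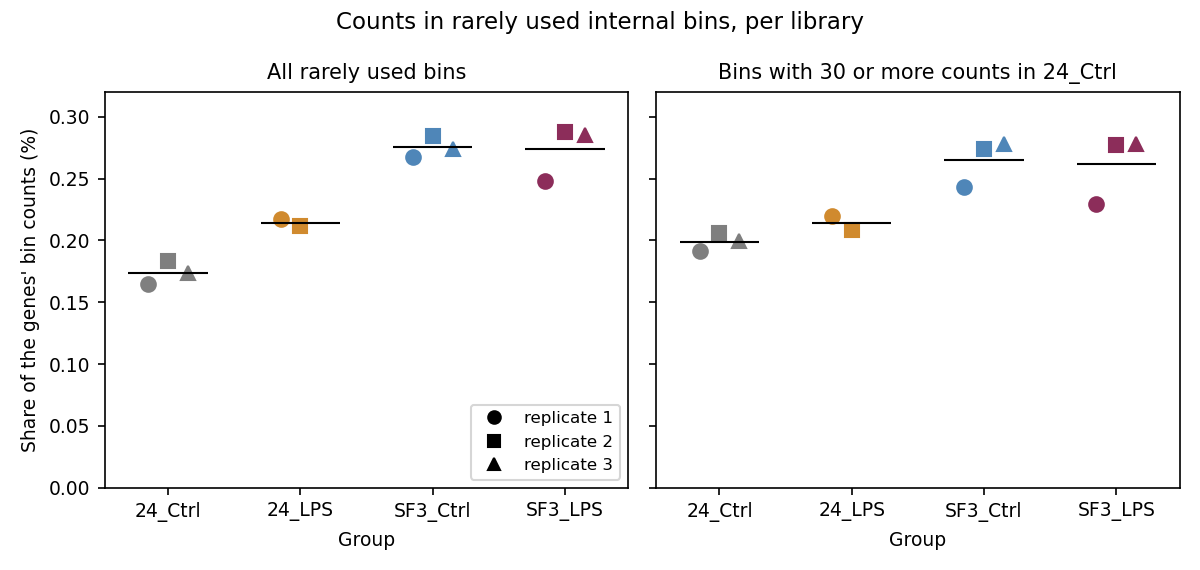
Share of the member genes' bin counts (%, y axis, from 0) that fell in rarely used bins, per library (points; shape gives the replicate number) and group (x axis), with group means as lines; left, all 3151 bins, right, the 651 bins with 30 or more counts in 24_Ctrl alone. All SF3_LPS libraries lie above both 24_LPS libraries, from 0.248% against 0.217% in the left panel and from 0.229% against 0.220% in the right.

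Bin by bin, 61 members were used more and 1 less in SF3_LPS than in 24_LPS. The measure is usage, a bin's counts relative to those of the gene's other bins in the same library, so a change of the whole gene does not enter it. Each bin was tested with edgeR's quasi-likelihood test in 8 libraries without 24_Ctrl, and called at a Benjamini-Hochberg adjusted p of at most 0.1 over all 166737 bins tested. Of the 3150 members tested (all but 1), the 61 called higher are 1.94%, beside 0.410% of all bins called higher and 0.142% called lower. The median log2 change of usage was 0.43 over members (quartiles -0.40 and 1.39) and 0.006 over all bins tested, and 63.4% of members had a value above 0. In 1027 members (32.6%) the libraries of SF3_LPS and 24_LPS did not overlap in either direction, beside 21.4% of all bins. Among the 651 bins with 30 or more counts in 24_Ctrl alone, 15 were called higher (2.30%) and 1 lower, with a median of 0.24. These counts describe the members and, since the count limit used the tested libraries, are not given as support for a direction.

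With a block for the replicate number added to this fit, 158 members were called higher (5.02%), beside 1.50% of all bins, and 7 lower, beside 1.02%. The 7 were Ly6e, Mga, Pnisr, Psap, Actb, Wars and Rplp0. All 61 bins called higher without the block were called with it. In the libraries numbered 2 and 3 alone, a setting added after seeing the data, 24_LPS is replicate 2 only. All 61 kept a log2 change above 0 there. With 1 library in that group the setting is no replicated check, and its calls are not given as support. Without the offset for the gene's other bins, where a change of the whole gene enters, 9.30% of members and 12.2% of all bins were called. The count moved with single libraries. Without replicate 1 of 24_LPS, the deeper of that group here, 4 members were called (Bsg, Cd44, Sdcbp and Pole3), which is 0.127% beside 0.0618% of all bins, and without replicate 2 of 24_LPS 40 (1.27%, beside 0.354%). Both refits leave 24_LPS with 1 library, which is then assumed to vary like the other groups. Without replicate 1 of SF3_LPS 79 were called (2.51%, beside 0.664%), without replicate 2 it was 28 (0.889%, beside 0.247%) and without replicate 3 it was 29 (0.921%, beside 0.224%).

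**Figure D2:**
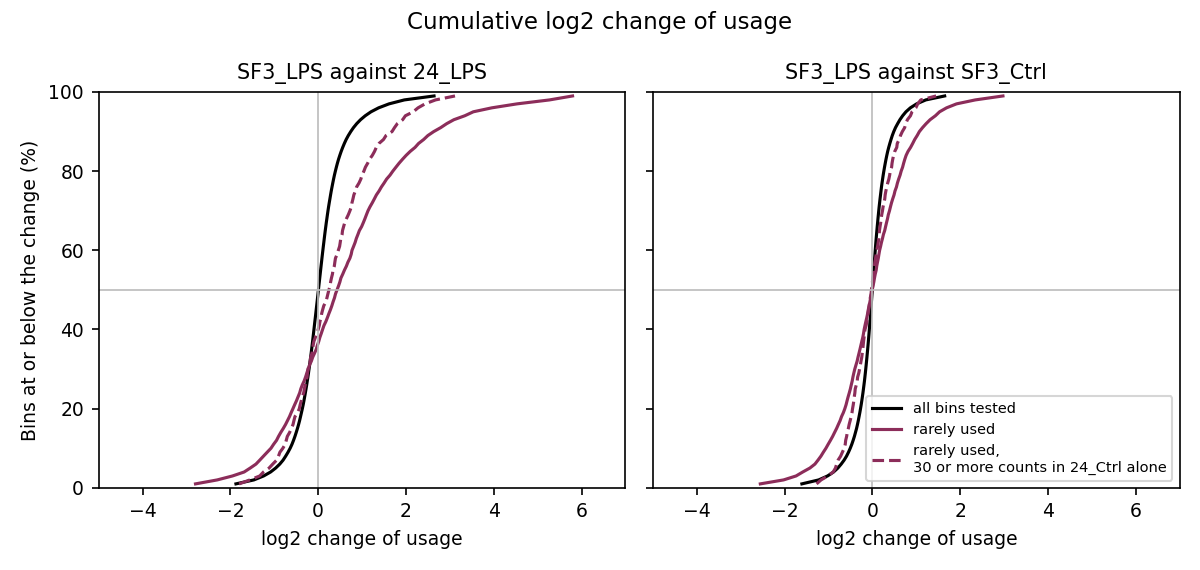
Percent of bins (y axis) at or below each log2 change of usage (x axis) in SF3_LPS against 24_LPS (left) and SF3_LPS against SF3_Ctrl (right), for all bins tested (black), rarely used bins (solid red) and those with 30 or more counts in 24_Ctrl alone (dashed). On the left the 50% line is crossed at 0.006, 0.43 and 0.24; on the right all 3 curves cross it near 0.

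Bins of intermediate use, between 5 and 50% of the median bin in any of the 7620 genes that could hold rarely used bins, were called higher in 256 and lower in 29 of 19625 tested, a share of 1.30% higher with a median log2 change of 0.12. The lowest- and highest-numbered bins of these 7620 genes were called higher in 40 and lower in 14 of 10284, with a median of 0.08. The differences between these shares and that of the rarely used bins were not tested.

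The 62 called bins lie in 58 genes. Relative to the median bin of the gene, the median of the 61 was 2.56% in 24_Ctrl, 2.04% in 24_LPS, 13.6% in SF3_Ctrl and 19.1% in SF3_LPS, the last ranging from 4.02 to 102%. It was over 10% in SF3_LPS for 47 of them, and still under 5% for Pfn1 bin 3 (4.02%), Ucp2 bin 22 (4.93%) and Ralb bin 2 (4.95%), which were singled out after their values were seen. The 61 were picked for being higher in SF3_LPS than in 24_LPS, so the medians of these groups only describe the bins picked. In all 61 every SF3_LPS library lay above both 24_LPS libraries. SF3_LPS was therefore also higher in both same-numbered pairs of libraries, which adds no check. The SF3_Ctrl mean lay above both 24_LPS libraries in all 61, and the log2 change in SF3_LPS against SF3_Ctrl ranged from -0.45 to 1.60 with a median of 0.20.

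**Figure D3:**
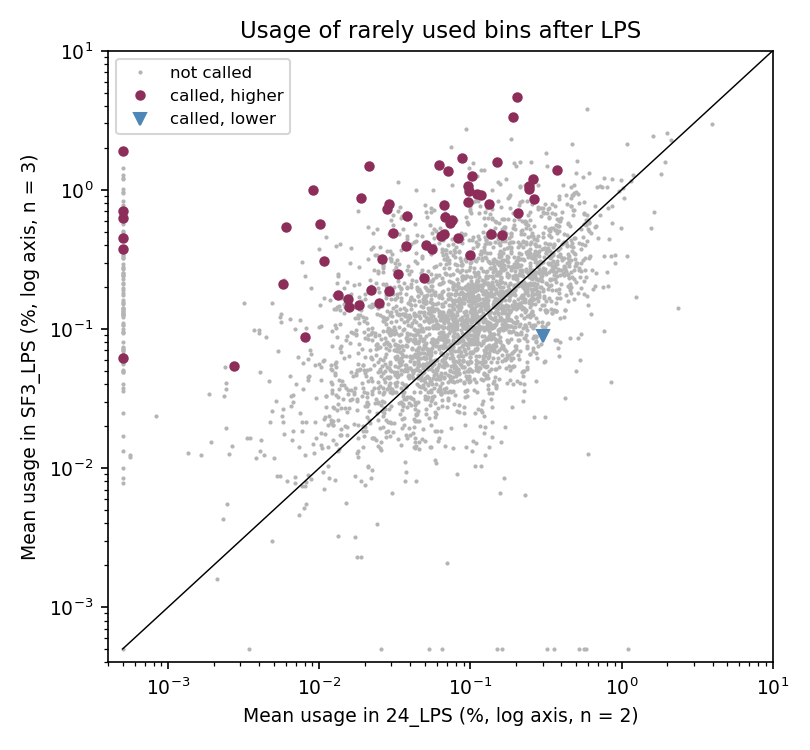
Mean usage of each rarely used bin, as a percent of its gene's bin counts, in 24_LPS (x axis, log scale, n = 2) and SF3_LPS (y axis, log scale, n = 3); bins with no count in a group are drawn on the edge. The 61 bins called higher (red circles) lie above the diagonal and the 1 called lower (Ly6e, blue triangle) below it.

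The 12 bins described next had the smallest p among those called higher, taking 1 bin per gene. Most of the bins called higher, described here or not, reached the limit of 30 counts only through libraries with SF3a1 siRNA. Below, these include Klhl5 bin 3 and the called bins of Atp6v0b, Cd44, Mcmbp, Bid, Pstpip1, Mrpl14, Rapgef1, Wdr61, 2610507B11Rik, Pfn1 and Anapc1. Their calls are given as values of these bins. Usage below is a percent of the gene's bin counts, and libraries are given in the order of their replicate numbers.

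Bsg encodes basigin, a membrane glycoprotein that helps lactate transporters reach the cell surface. Its bin 5 (ENSMUSG00000023175, the coding cassette exon printed above, carried by 1 of 6 transcripts) had a usage of 0.104% and 0.0887% in 24_LPS. In SF3_LPS it was 1.30%, 1.03% and 0.872%, from 404, 152 and 123 counts, and in SF3_Ctrl 0.981%, 0.930% and 1.44%. Every depleted library lay far above both 24_LPS libraries, and the log2 change was 3.44 (SE 0.33, adjusted p = 0.000188). In SF3_LPS the exon reached 35.3% of the gene's median bin, in counts not corrected for length.

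Klhl5, a member of the kelch-like family of ubiquitin ligase adaptors, had 2 called bins, and bin 3 (ENSMUSG00000054920) stood at 0.109% and 0.0664% in 24_LPS. It stood at 2.12%, 1.57% and 1.35% in SF3_LPS, with no overlap (log2 change 4.09, SE 0.51, adjusted p = 0.00159). Ap1s1 encodes a small subunit of the AP-1 clathrin adaptor, which sorts cargo at the Golgi. Its bin 3 (ENSMUSG00000004849, chr5:137037379-137037395, a 17-base piece of a last exon of 1 transcript) was at 0.103% and 0.131% in 24_LPS. In SF3_LPS it was at 1.13%, 0.537% and 1.08%, all above both 24_LPS libraries but with replicate 2 lowest (log2 change 3.02, SE 0.39, adjusted p = 0.00196). SF3_Ctrl was at 0.764%, 0.802% and 0.771%.

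Ldha, lactate dehydrogenase A of glycolysis, had bin 9 (ENSMUSG00000063229) at 0.0101% and 0.00587% in 24_LPS and at 0.0937%, 0.0989% and 0.0712% in SF3_LPS. The groups were well apart (log2 change 3.27, SE 0.47, adjusted p = 0.00398), and whether reads of its processed pseudogenes entered these counts was not tested. Atp6v0b is a membrane subunit of the vacuolar proton pump that acidifies lysosomes. Its bin 11 (ENSMUSG00000033379, the first 3 bases of the intron printed above) rose from 9 and 1 counts in 24_LPS to 93, 35 and 40 in SF3_LPS, as a usage from 0.0350% and 0.0170% to 0.297%, 0.319% and 0.331%. A bin of 3 bases that touches bins on both sides cannot show that the whole intron is kept. The depleted libraries were close together and apart from the control ones (log2 change 3.34, SE 0.48, adjusted p = 0.00416), but a gene on the opposite strand overlaps this bin, and the strand setting of the counting is not given in the sources used here.

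Sdcbp encodes syntenin, a PDZ adaptor that binds syndecans at the membrane. The cassette exon in bin 8 (ENSMUSG00000028249), outside the coding sequence in the 1 of 8 transcripts that carries it, was at 0.0985% and 0.0475% in 24_LPS and at 0.568%, 0.521% and 0.634% in SF3_LPS. No SF3_LPS library overlapped with 24_LPS (log2 change 2.81, SE 0.40, adjusted p = 0.00416). Cd44, the hyaluronan receptor, is a textbook case of alternative splicing through its variable exons. Its coding bin 11 (ENSMUSG00000005087, carried by 6 of 9 transcripts) was at 0.0215% and 0.00530% in 24_LPS and at 0.179%, 0.139% and 0.206% in SF3_LPS, again without overlap (log2 change 3.38, SE 0.49, adjusted p = 0.00447). In SF3_Ctrl it was at 0.0444%, 0.0660% and 0.0683%, below every SF3_LPS library, with a log2 change in SF3_LPS against SF3_Ctrl of 1.60 (adjusted p = 0.913, and 0.0469 with the replicate block). Bsg, Sdcbp and Cd44 stayed called in each refit that kept both 24_LPS libraries. These refits reuse the same libraries and are no independent check. The Cd44 bin reached the count limit only through libraries with SF3a1 siRNA.

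Mcmbp encodes a partner of the MCM helicase subunits. Its bin 8 (ENSMUSG00000048170, chr7:128699141-128699219) had 0 and 1 counts in 24_LPS against 32, 22 and 27 in SF3_LPS. The pooled ratio of usage was 96.3 with a 95% exact counting interval of 16.8 to 3851, which covers counting error only (adjusted p = 0.00554). Bid, a BH3-only protein that links death receptors to mitochondria, had bin 13 (ENSMUSG00000004446, chr6:120907262-120907385) at 1 and 0 counts in 24_LPS and at 39, 13 and 34 in SF3_LPS. Its ratio was 57.7 (10.1 to 2305, adjusted p = 0.00918). In both genes the SF3_LPS libraries lay above both 24_LPS libraries, and the 24_LPS counts are too few to fix the size. Each bin had 5 pooled counts in 24_Ctrl and reached the limit of 30 counts only through libraries with SF3a1 siRNA. Both calls are therefore given as values of these bins.

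Ucp2 encodes a mitochondrial carrier that is abundant in macrophages, and 4 of its bins (19 to 22) were called. Bin 19 (ENSMUSG00000033685) was at 0.0523% and 0.0462% in 24_LPS and at 0.192%, 0.244% and 0.260% in SF3_LPS (log2 change 2.21, SE 0.35, adjusted p = 0.00855). A read that spans neighbouring bins counts in each, so these 4 are not independent. Mlf2, a myeloid leukemia factor family gene, had bin 9 (ENSMUSG00000030120) at 0.320% and 0.433% in 24_LPS and at 1.39%, 1.30% and 1.45% in SF3_LPS (log2 change 1.94, SE 0.31, adjusted p = 0.00907). Ncf1 encodes p47phox, which assembles the NADPH oxidase of phagocytes. Its bin 15 (ENSMUSG00000015950) was at 0.0621% and 0.0894% in 24_LPS and at 0.472%, 0.540% and 0.809% in SF3_LPS (log2 change 3.06, SE 0.49, adjusted p = 0.00917). All 3 bins were higher in every SF3_LPS library than in either 24_LPS library. Of the gene counts of these 12 genes, those of Ncf1 (log2 change -1.43, edgeR adjusted p = 0.000132) and Mcmbp (-0.60, adjusted p = 0.0365) were lower. Those of Cd44 (0.42, adjusted p = 0.0530), Ucp2 (0.48, adjusted p = 0.0294) and Mlf2 (0.38, adjusted p = 0.0877) were higher, while those of Bsg, Klhl5, Ap1s1, Ldha, Atp6v0b, Sdcbp and Bid did not pass the test. Without replicate 1 of 24_LPS, which leaves 1 library in that group, only Bsg, Sdcbp and Cd44 of these 12 bins were called. The fitted log2 changes of the other 9 lay between 1.68 and 7.52. Bid bin 13 had 0 counts in the library left, so the size of its fitted change is not fixed.

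**Figure D4:**
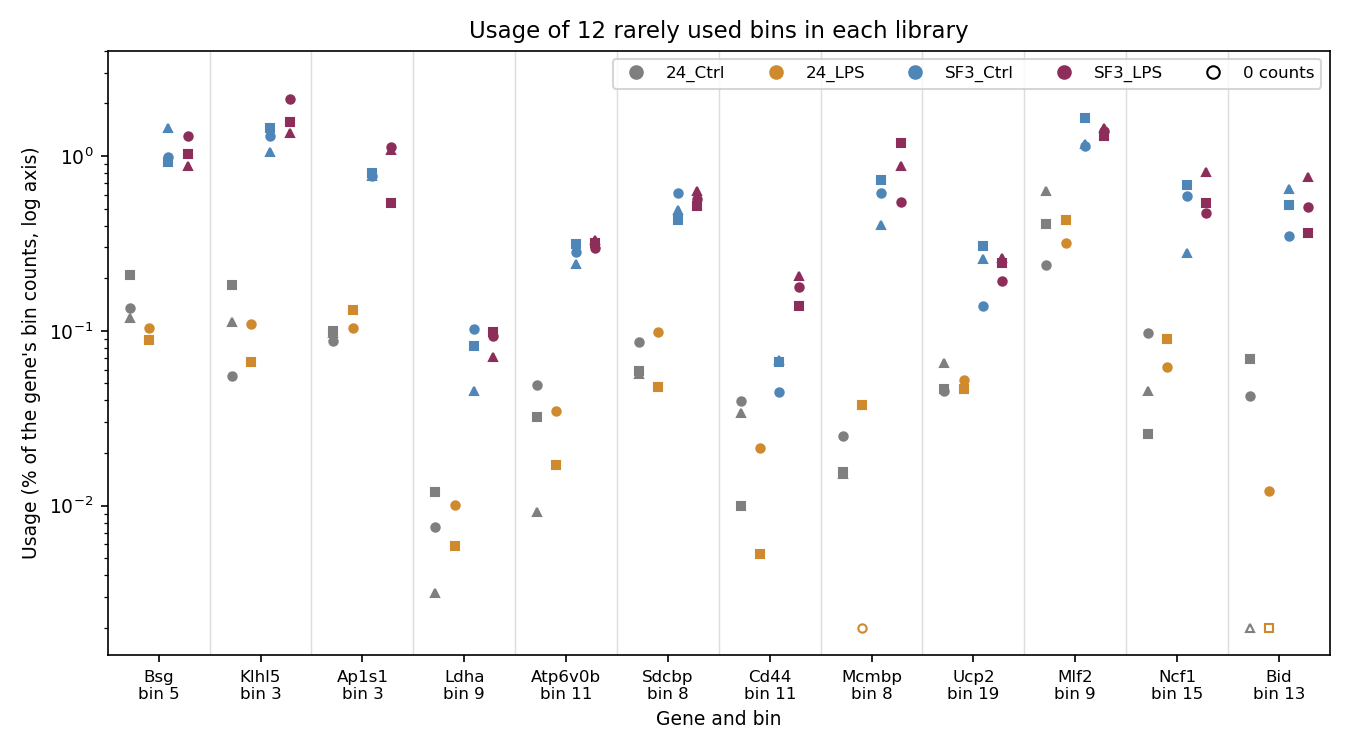
Usage (percent of the gene's bin counts, y axis, log scale) of the 12 called bins with the smallest p, in each library (point shape gives the replicate number as in the plot of summed shares; open symbols at the bottom are libraries with 0 counts). In each of the 12, all SF3_LPS points lie above all 24_LPS points and the SF3_Ctrl mean lies above both 24_LPS points.

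Ly6e, which encodes an interferon-inducible protein anchored in the membrane, was the only member called lower. Its bin 2 (ENSMUSG00000022587, chr15:74955071-74955335, part of a first exon) was at 0.351% and 0.249% in 24_LPS and at 0.125%, 0.0499% and 0.0922% in SF3_LPS. The groups did not overlap (log2 change -1.75, SE 0.39, adjusted p = 0.0813). In cells without LPS it was at 0.0885%, 0.0848% and 0.0271% in 24_Ctrl and at 0.0631%, 0.0627% and 0.0239% in SF3_Ctrl, and the 24_Ctrl values were low by the rule. This call was lost with all 11 libraries in the fit (log2 change -1.75), with edgeR's diffSpliceDGE (-1.84), and without any 1 of 24_LPS replicate 1, 24_LPS replicate 2, SF3_LPS replicate 2 or SF3_LPS replicate 3, with log2 changes from -1.96 to -1.47.

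For 6 of the 61 bins both 24_LPS libraries had 0 counts. They belong to Lrp1, Rtn3, Cc2d1a, Sema4b, Vps33b and Rrp8, and were singled out after their values were seen. With 3 counts over the group as the floor, usage was at least 11.7-fold higher for Lrp1, an endocytic receptor, at least 15.5-fold for Rtn3, at least 9.87-fold for Cc2d1a, at least 5.90-fold for Sema4b, at least 10.3-fold for Vps33b and at least 6.73-fold for Rrp8. These bounds cover counting error only. All 6 bins reached the count limit of the rule only through libraries with SF3a1 siRNA. Their bounds are therefore given as values of these bins. Another 12 bins had 1 to 3 counts in 24_LPS, and these too reached the count limit only through libraries with SF3a1 siRNA. Over all members, 95 had no count in 24_LPS, and with these at their bounds the median log2 change was 0.42.

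By place in the gene, introns, cassette exons and splice-site extensions held a minority of the members. Coordinates could be rebuilt for 2563 members (81.3%), of which 44 were called higher, and 588 had none, of which 17 were called higher. A retained intron here is a bin in an annotated intron that another transcript keeps. There were 357 such bins, and 9 were called higher (2.52%), with a median log2 change of 0.60. A cassette exon is a whole internal exon that other transcripts skip, and 7 of 135 were called higher (5.19%, median 0.60). A splice-site extension lengthens an exon on 1 side, and 4 of 122 were called higher (3.28%, median 0.70). Of 30 other bins inside introns, 2 were called higher. The largest class were pieces of an exon that is the first or last of every transcript carrying it, with 22 of 1483 called higher (1.48%, median 0.48). In 435 bins that lie in no annotated intron, with a median length of 14 bases, 0 were called higher and 1 lower, with a median of -0.02.

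Among the other internal bins of the 7620 genes that could hold rarely used bins, retained introns were called higher in 120 (2.84%) and lower in 8 of 4221, and first or last exons higher in 144 (1.97%) and lower in 12 of 7319. Cassette exons there were called higher in 5 and lower in 20 of 2719, against 7 higher and 0 lower among the rarely used ones. Splice-site extensions among the other internal bins were called higher in 8 and lower in 11 of 4208. The remaining bins inside introns were called higher in 6 and lower in 5 of 1738 there. Those in no annotated intron were called higher in 35 and lower in 52 of 82443. None of these differences between rarely used and other bins was tested.

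**Figure D5:**
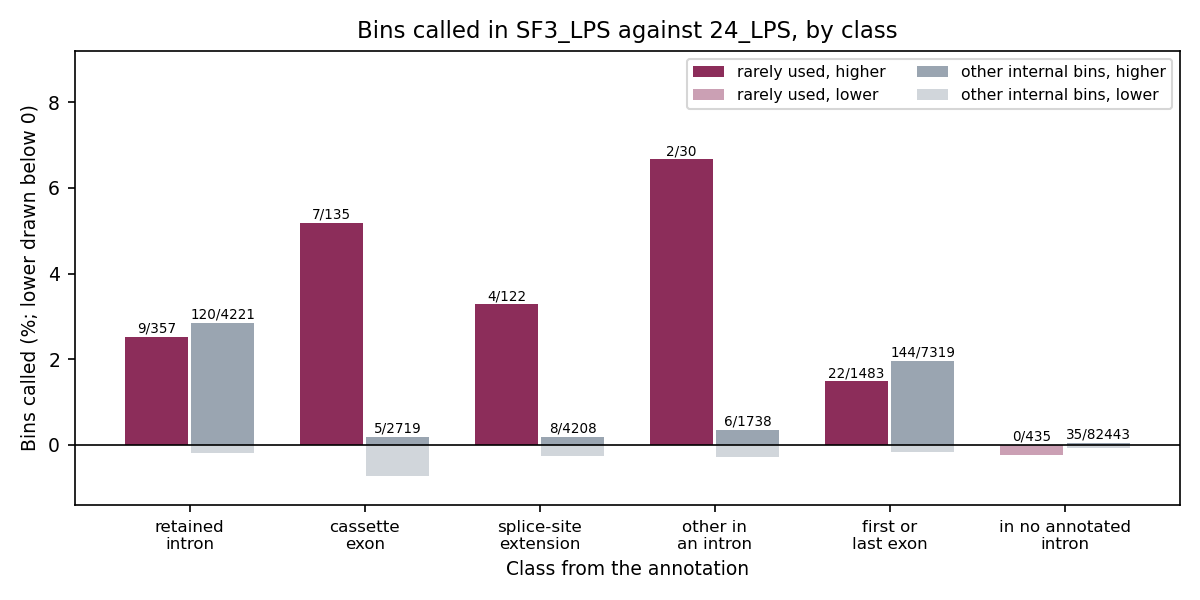
Percent of bins called in SF3_LPS against 24_LPS (y axis; higher drawn above 0, lower below) by class from the annotation (x axis), for rarely used bins (red) and the other internal bins of the genes that could hold them (grey); the fraction above each bar is bins called higher over bins tested. Rarely used cassette exons were called higher in 7 of 135 and lower in 0, other cassette exons higher in 5 and lower in 20 of 2719. The rarely used bins were chosen for low counts, which left little room for a call lower.

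The 7 called cassette exons were in Bsg, Sdcbp, Cd44, Pstpip1, Mrpl14, Rapgef1 and Gpatch4. Pstpip1, an adaptor of the actin cytoskeleton in myeloid cells, had bin 8 at 0.0606% and 0.0139% in 24_LPS and at 0.234%, 0.427% and 0.531% in SF3_LPS (log2 change 3.11, SE 0.59, adjusted p = 0.0323). Rapgef1, an exchange factor for the GTPase Rap1, had bin 19 at 0.0134% and 0.0534% against 0.262%, 0.226% and 0.257% (log2 change 3.20, SE 0.70, adjusted p = 0.0697). Mrpl14, a mitochondrial ribosomal protein gene, had 0 and 1 counts in 24_LPS against 24, 27 and 12 in bin 5, and Gpatch4 bin 2 was at 0.369% and 0.150% against 0.864%, 1.33% and 1.39%. In all 4 the SF3_LPS libraries lay above both 24_LPS libraries. These 4 bins were singled out after their values were seen.

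Of the whole introns printed above, Wdr61, a subunit of the PAF and SKI complexes, had bin 12 (ENSMUSG00000061559) at 0.0878% and 0.297% in 24_LPS and at 1.67%, 4.81% and 3.53% in SF3_LPS (log2 change 4.36, SE 0.74, adjusted p = 0.0164). The intron of Adam8, a membrane metalloprotease of leukocytes, was at 0.126% and 0.0726% against 0.231%, 0.440% and 0.341% (log2 change 1.61, SE 0.34, adjusted p = 0.0564). The intron of Taldo1, an enzyme of the pentose phosphate pathway, had 87 and 8 counts against 266, 89 and 70 (log2 change 1.40, SE 0.32, adjusted p = 0.0967). None of these introns overlapped between the groups, and the lowest SF3_LPS library was replicate 1 in Wdr61 and Adam8 and replicate 3 in Taldo1. The 2610507B11Rik intron had 4 and 1 counts in 24_LPS against 43, 8 and 13 in SF3_LPS (log2 change 3.10, SE 0.64, adjusted p = 0.0523).

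The introns behind the 9 called retained-intron bins had a median length of 180 bases and a GC content of 56.7%. The median T content in the window from 17 to 5 bases before their end was 30.8% and the median C content 46.2%. Over all 332 introns of rarely used retained-intron bins the medians were 194 bases, 50.9% GC, 46.2% T and 30.8% C, and over 3509 introns of the other internal bins 275 bases, 51.9%, 46.2% and 30.8%. GT at the start and AG at the end were found in 9 of 9, in 97.0% and in 95.9%. With 9 introns these values are a description of those introns. Some of the bins, such as that of Atp6v0b, cover only a part of their intron.

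Other features were not part of the rule. Of the members with coordinates, 40.3% lay in a coding transcript and 7.14% in its coding sequence, against 93.1% and 75.4% of 102723 other internal bins. The median length was 109 bases in both, a length that is a multiple of 3 was found in 31.7% and 36.5%, and 85.4% of members touched a neighbouring bin against 51.5%. A single annotated transcript carried 68.6% of members and 38 of the 44 called higher. Of those 44, 17 (38.6%) were carried only by transcripts annotated as retained intron, 14 (31.8%) only by protein-coding transcripts and 9 (20.5%) only by processed transcripts. Over all 2563 members with coordinates the shares were 38.4%, 26.3% and 16.2%. Coding sequence held 7 of the 44 and 183 of the 2563. Another gene on the opposite strand overlapped 4 of the 44 and 198 of the 2563. Among the 1484 first- or last-exon members, 592 began exactly where an annotated intron of another transcript begins (7 called) and 434 ended where one ends (4 called).

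Members were found in genes of each functional list examined. Of the splicing factor genes, 64 held 117 members, of which 2 were called higher and 0 lower (1.71%), with a median log2 change of 0.46, and 5 higher and 1 lower with the replicate block. One was in U2af2, which binds the pyrimidine tract. Its bin 7 (ENSMUSG00000030435) was at 0.273% and 0.254% in 24_LPS and at 0.860%, 0.740% and 0.962% in SF3_LPS, well apart (log2 change 1.69, SE 0.31, adjusted p = 0.0245). The other was the extension printed above in Ptbp1, a pyrimidine tract binding protein that represses exons, at 0.0398% and 0.0183% against 0.147%, 0.158% and 0.261% (log2 change 2.48, SE 0.52, adjusted p = 0.0558). Every SF3_LPS library was above both 24_LPS libraries in this coding bin. The calls of both bins were lost without either 24_LPS library or without SF3_LPS replicate 3, and that of Ptbp1 also without SF3_LPS replicate 2.

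Of the TLR and NF-κB signalling genes, 26 held 54 members, with 2 called higher, 0 lower and a median of 0.24 (4 higher with the block). Map2k2 encodes MEK2, a kinase above ERK, and its bin 9 (ENSMUSG00000035027, chr10:81118977-81119108) was at 0.0642% and 0.0631% in 24_LPS and at 0.384%, 0.576% and 0.439% in SF3_LPS (log2 change 2.81, SE 0.55, adjusted p = 0.0354). Map2k3 encodes MKK3, which activates p38, and its bin 16 (ENSMUSG00000018932, chr11:60950662-60951157) was at 0.0946% and 0.179% against 0.370%, 0.469% and 0.595% (log2 change 1.99, SE 0.39, adjusted p = 0.0403). Neither bin overlapped between the groups, and both calls were lost without 24_LPS replicate 1, SF3_LPS replicate 2 or SF3_LPS replicate 3, and that of Map2k2 also without 24_LPS replicate 2.

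Members in the receptor pathway itself were named whatever their values, and none was called without the block. Tlr4, the LPS receptor, had bin 9 (ENSMUSG00000039005, chr4:66924366-66924488) at 5 and 2 counts in 24_LPS and at 30, 6 and 10 in SF3_LPS. As usage this was 0.280% and 0.656% against 2.20%, 2.19% and 1.98%, without overlap (log2 change 2.51, SE 0.74, adjusted p = 0.293, and 0.0865 with the replicate block). The paper's RNA-seq pointed to alternative Tlr4 exons far downstream of the gene, but its RT-PCR gave no such products. Whether bin 9 is one of those exons was not tested. Ikbkb encodes IKKβ, the kinase that frees NF-κB. Its bin 34 (ENSMUSG00000031537, chr8:22689131-22691057) had 0 and 1 counts in 24_LPS, 8, 2 and 2 in SF3_LPS, 15, 13 and 5 in SF3_Ctrl and 0 in every 24_Ctrl library. The SF3_LPS counts were few (ratio 16.8, 95% exact counting interval 2.49 to 719, adjusted p = 0.494), and a gene on the opposite strand overlaps the bin. Rab7b, which sends TLR4 to lysosomes, had bin 11 at 20 and 0 counts in 24_LPS and at 14, 1 and 10 in SF3_LPS, with overlap between the groups (adjusted p = 0.945). Myd88, the adaptor below TLR4, had bins 11 and 12 at 17 and 11 and at 13 and 11 counts in 24_LPS, and at 19, 9 and 11 and at 17, 6 and 11 in SF3_LPS (adjusted p = 0.989 and 0.996). These bins overlap other genes on both strands. Irak1 and Cd14 held no member. Sf3a1 itself had bin 17, an intron of 450 bases, at 0.293% and 0.206% in 24_LPS and at 0.143%, 0.346% and 0.536% in SF3_LPS, overlapping (adjusted p = 0.973).

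Of 36 chromatin and transcription genes with 50 members, 2 bins were called higher and 0 lower (median 0.54, 3 higher with the block). Chd4, the ATPase of the NuRD remodeller, had bin 35 (ENSMUSG00000063870, chr6:125114467-125114621) at 0.0370% and 0.0974% against 0.304%, 0.579% and 0.572% (log2 change 3.06, SE 0.49, adjusted p = 0.0104). Brd2, a BET protein that reads acetylated histones, had bin 19 (ENSMUSG00000024335) at 0.0713% and 0.0394% against 0.254%, 0.531% and 0.336% (log2 change 2.55, SE 0.44, adjusted p = 0.0164). In both genes replicate 1 was the lowest SF3_LPS library and still above 24_LPS, and both calls were lost without 24_LPS replicate 1.

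Of 54 cytoskeleton and motility genes with 152 members, 3 bins were called higher and 0 lower (1.97%, median 0.31, 13 higher and 1 lower with the block), in Cd44, Pfn1 and Ptk2b. Pfn1 encodes profilin, which feeds actin monomers to growing filaments. Its bin 3, 10 bases at chr11:70652612-70652621, had 3 and 0 counts in 24_LPS and 24, 17 and 15 in SF3_LPS, a ratio of 14.2 (4.60 to 70.7, adjusted p = 0.0714). Ptk2b encodes the focal adhesion kinase relative PYK2, and its bin 17 (chr14:66163151-66163906) was at 0.0609% and 0.0400% against 0.431%, 0.312% and 0.461% (log2 change 2.87, SE 0.65, adjusted p = 0.0821). Both were higher in every SF3_LPS library, and both calls were lost when any 1 library of the comparison was left out.

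Of 20 interferon and antiviral genes with 31 members, the intron of Oas3 printed above was called higher and 0 lower (median 0.26, 3 higher with the block). Oas3 makes the 2′-5′ oligoadenylates that activate RNase L. Its bin 3 (ENSMUSG00000032661) was at 0.241% and 0.251% in 24_LPS and at 0.892%, 1.30% and 0.866% in SF3_LPS (log2 change 2.03, SE 0.37, adjusted p = 0.0225). The gene count of Oas3 was lower (log2 change -1.59, adjusted p = 0.00376), so usage rose while the bin's counts, 84 and 25 against 123, 30 and 42, did not pass the test at the level of the bin (log2 change 0.32). The call was lost without either 24_LPS library.

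Of 39 lysosome and traffic genes with 78 members, the Atp6v0b bin was called higher (median 0.29, 2 higher and 1 lower with the block). Of 20 p53 and cell cycle genes with 42 members, Anapc1 was called higher (median 0.41, 3 with the block). Anapc1 is the largest subunit of the anaphase-promoting complex, and its bin 43 (chr2:128659600-128659736) had 6 and 0 counts in 24_LPS and 35, 25 and 14 in SF3_LPS, without overlap of usage (log2 change 4.18, SE 0.79, adjusted p = 0.0288). This call was lost without 24_LPS replicate 1, 24_LPS replicate 2 or SF3_LPS replicate 2. No member was called in the 27 ribosome and translation genes with 75 members (median 0.04, 2 higher and 2 lower with the block). The same held for 7 genes of nonsense-mediated decay or other mRNA decay, with 23 members (median 0.15, 0 with the block). The shares of these lists stand beside 1.94% of all members and 0.410% of all bins and are descriptions. Their counts with the block stand beside 5.02% of all members and 1.50% of all bins called higher with it. Called lower with it were 7 members and 1.02% of all bins.

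In SF3_LPS against SF3_Ctrl, which shares the SF3_LPS libraries with the first comparison and asks for an LPS change in depleted cells, 3 members were called higher and 0 lower. They are 0.0952% of members, beside 0.0192% of all bins called higher and 0.00300% called lower, and with the replicate block 8 were higher, beside 0.0756%, and 1 lower, beside 0.0510%. At an unadjusted p under 0.05, 126 members passed (4.00%), beside 2.34% of all bins, both under 5%. The 3 bins called had 8, 9 and 4 pooled counts in 24_Ctrl and passed the limit of 30 counts through libraries with LPS. Among the members with 10 or more counts in 24_Ctrl, and those with 30 or more, edgeR called 0 (67 of 2093 and 15 of 651 at an unadjusted p under 0.05). With the block it called 2 higher and 1 lower of the 2093 and 1 lower of the 651. The 3 calls are given as values of these bins. The median log2 change was -0.006 over members and -0.004 over all bins. All 3 bins are in Dglucy, a mitochondrial gene for D-glutamate cyclase, and neighbouring bins 30 and 31 can share reads. Bin 27 (ENSMUSG00000021185, chr12:100885880-100885990) had 4, 4 and 3 counts in SF3_Ctrl and 75, 30 and 60 in SF3_LPS, a mean usage of 0.141% ± 0.0389 against 2.13% ± 0.327 (SD, n = 3 each; log2 change 3.97, SE 0.46, adjusted p = 0.00232). In 24_LPS it was at 1.35% and 0.805%, and in 24_Ctrl at 0%, 0.0390% and 0.199%. The 24_Ctrl values chose this bin and were low by the rule. Bin 31 was at 0.288%, 0.0410% and 0.163% in SF3_Ctrl and at 3.43%, 2.23% and 3.21% in SF3_LPS. A gene on the opposite strand overlaps these bins.

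At the level of whole genes, changes were common in the genes holding rarely used bins and in all genes. Of 1755 tested in SF3_LPS against 24_LPS, 354 were higher (20.2%) and 382 lower (21.8%), beside 16.9% and 18.6% of all 14524 genes, with a median log2 change of 0.02 against -0.03. Of the 58 genes with a called bin, 10 were higher (17.2%) and 15 lower (25.9%), with a median of 0.02. More transcripts made with a bin and slower loss of those transcripts cannot be told apart in these counts of steady-state RNA.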

How the data were processed

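Polyadenylated RNA of RAW264.7 cultures was sequenced on the Ion Proton. The authors kept reads of 30 or more nucleotides, mapped them to mm10 with GSNAP, kept uniquely mapping reads, and deposited counts per gene (HTSeq 0.5.4p, per the submitters' processing notes) and counts per exon bin (DEXSeq's counting script) on an Ensembl annotation, not normalized. Whether counting used the strand is not given in the sources used here. Groups were taken from the sample labels. The members and gene lists were chosen with earlier results of these data known.

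Bins with 30 or more counts over 11 libraries, whose gene's other bins had 10 or more in each of the 8 libraries fitted, were tested with edgeR 4.0.16 (glmQLFit, R 4.3.3), with the log of the other bins' counts as offset. Adjusted p-values (Benjamini-Hochberg) cover all bins tested, and 0.1 was the threshold the study used. Gene counts were fitted with TMM and filterByExpr. With 3 against 2 libraries an exact permutation test cannot go below p = 0.1. Steps were tested on simulated data. Reads outside annotated exons stayed out of totals. Alternatives were DESeq2 1.42.0, diffSpliceDGE, bin counts without offset, other filters and members, a replicate block and left-out libraries.

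Same-numbered libraries deviated together in bin usage. The correlation of deviations from group means over 60291 bins was 0.382 to 0.700 in 15 same-numbered pairs, at most -0.405 between a library numbered 1 and one numbered 2 or 3, and 0.301 to 0.520 between numbers 2 and 3. The data thus set the libraries numbered 1 apart. Same-numbered pairs of libraries numbered 2 or 3 (0.382 to 0.553) overlapped the range between numbers 2 and 3, so no pairing of those numbers is shown. The block uses the replicate numbers, and the series' design adds that libraries numbered 1 were sequenced in 2 runs. The lowest chi-square per degree of freedom between replicates was 8.85, so no library was a copy.

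Named bins were called members without overlap of libraries, 1 per gene: the 12 with the smallest p among those higher, up to 5 lower, up to 3 per gene list, 3 each way in the second comparison, and whatever their values those of Tlr4, Irak1, Ikbkb, Cd14, Rab7b, Myd88 and Sf3a1. Coordinates and classes came from GENCODE vM21 (mm10), where a gene's rebuilt bins were as many as those counted, and the class of first or last exons was split off after seeing the data. RefSeq tables were not used.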

Additional observations from a re-analysis of the deposited data

How the results depend on the processing

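In SF3_LPS against 24_LPS, 62 members were called (61 higher; 1.97%, beside 0.551% of all bins), and 102 with DESeq2, 99 with diffSpliceDGE, 293 (255 higher and 38 lower) for bin counts without the offset, which include the change of the gene, 38 with only the 2 groups compared in the fit, 165 with the replicate block, 96 with the libraries numbered 2 and 3 (added after seeing the data), and 4 to 79 with 1 library left out. The fit with the libraries numbered 2 and 3, and those without either 24_LPS library, leave 24_LPS with 1 library. Their counts and medians are listed for completeness and are no replicated check. Without the offset the share of members, 9.30%, was below the 12.2% of all bins. Of the 62, those also called were 62 with DESeq2, 51 with diffSpliceDGE, 62 with the block and 3 without 24_LPS replicate 1. Other choices of members gave 16 called of 651 (2.46%; 30 or more counts in 24_Ctrl alone), 39 of 2093 (1.86%; 10 or more), 29 of 1325 (2.19%; under 2.5% of the median bin), 119 of 6691 (1.78%; under 10%) and 22 of 1223 (1.80%; gene overlapping no other). The median log2 change of 0.43 was 0.61 with the libraries numbered 2 and 3, 0.24 and 0.65 for members with 30 counts in 24_Ctrl and under 2.5%, and 0.33 to 0.59 with 1 library left out. Over all bins, 919 were called, and 1429 with DESeq2, 748 with diffSpliceDGE, 20318 without the offset, 601 with 2 groups, 4211 with the block, 3103 with the libraries numbered 2 and 3 and 103 to 1107 with 1 library left out.

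In SF3_LPS against SF3_Ctrl, 3 members were called (0.0952%, beside 0.0222% of all bins), and 33 without the offset (1.05%, below the 2.64% of all bins), 9 with the block, 5 with the libraries numbered 2 and 3, 2 to 3 with 1 library left out, 1 for members under 2.5%, and 0 for members with 30 counts in 24_Ctrl, with 10 counts there, or in genes overlapping no other, where edgeR without the block was the tool (with the block, 1 lower for 30 counts, and 2 higher and 1 lower for 10). All bins gave 37, and 77 with DESeq2, 4407 without the offset, 211 with the block, 195 with the libraries numbered 2 and 3 and 23 to 38 with 1 library left out.

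Of the named bins, 23 called and 6 not called, signs turned in 4 that were not called. With the libraries numbered 2 and 3, or without 24_LPS replicate 1, the only 24_LPS library is replicate 2. It had 0 counts in Rab7b bin 11, so fitted changes of this bin in these settings have no fixed size. The log2 change of Rab7b bin 11 was 0.13 without the offset, 5.05 with the libraries numbered 2 and 3, and -1.22 to 5.62 with 1 library left out. In the same order, Myd88 bin 11 gave -0.13, -0.30 and -0.49 to 0.79, and Myd88 bin 12 -0.21, -0.54 and -0.71 to 0.95, and Sf3a1 bin 17 gave -1.76 without the offset and -0.23 to 0.85 with 1 library left out. The 23 called named bins kept their sign in all 322 refits and their call in 268. Other than by leaving out a library, calls were lost for Ly6e with all 11 libraries, for Ly6e, Pfn1, Oas3 and Ptbp1 with diffSpliceDGE, for Pfn1, Ptk2b and Ptbp1 with only the 2 groups compared, and for Ptk2b and Oas3 without the offset. Apart from Tlr4 bin 9, the block changed no other call of a named bin in the first comparison. Where counts changed, the cause was not tested, and 12 called bins rest on 1 to 3 counts in 24_LPS.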
